A study of Mus musculus with 9 samples.

Results

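Transcripts of 10 transcription factors that set cell fate in the mammary gland were followed in undifferentiated HC11 cells, a cell line from mouse mammary epithelium. The factors *Elf5*, *Gata3*, *Foxa1*, *Esr1*, *Pgr*, *Trp63*, *Tfap2c*, *Sox9*, *Sox10* and *Ehf* were chosen by name, as known regulators of the alveolar, hormone-sensing or basal lineage, out of 55228 genes in the count table. RNA-seq had been done on 9 cultures, with 3 of parental cells (*WT*) and 3 of each of *KD1* and *KD2*, lines in which *Vangl2*, a core planar cell polarity gene, was targeted by CRISPR/Cas9, each with its own guide. All cultures were grown without added treatment in medium with insulin (5 µg/mL), EGF (10 ng/mL) and fetal bovine serum (10%). No prolactin was given. The labels call both lines knockouts where the study calls them *KD*. Each line was grown from a single colony, so that the edit, the guide and the history of the colony cannot be told apart, and the labels do not say whether replicate cultures came from separate experiments, so p-values measure only the spread between these cultures.

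The mammary epithelium has an inner luminal and an outer basal layer. *Elf5* acts downstream of the prolactin receptor and drives luminal progenitors towards milk-secreting alveolar cells, *Gata3* keeps luminal cells in their fate, and *Foxa1* opens chromatin for the estrogen receptor, encoded by *Esr1*, which in turn induces the progesterone receptor gene *Pgr* in hormone-sensing cells. *Trp63* encodes p63, which maintains the basal layer, *Sox9* and *Sox10* are tied to progenitor and stem-like states, *Tfap2c* is an AP-2 factor of luminal cells, and *Ehf* is an epithelial ETS factor of the same subfamily as *Elf5*.

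Of the 10 factors, 8 had enough counts to be tested, and *Pgr* and *Sox10* had no count in any culture. *Foxa1* passed the expression filter only through its *KD1* counts, and *Elf5* would not have passed without its *KD2* counts. These are the lines in which each is called higher, so being tested was not independent of those calls. RefSeq promoter windows (GRCm38.p6, 250 bases before to 50 after a start site) were at hand for 5 of the 10 factors, and 240 bases ahead of a start site are shown for *Gata3*, *Foxa1* and *Elf5*, the 3 of these whose levels differed between the lines. Each of the 3 windows belongs to an internal start site, 11.4 kb (*Gata3*), 0.805 kb (*Foxa1*) and 12.4 kb (*Elf5*) downstream of the outermost annotated start of its gene, and holds 0 bases of that gene's exons. Capitals mark matches to 6 short motifs searched on both strands, and all sequences read 5′ to 3′ on the strand of the gene. *Gata3* is shown from chr2:9878611-9878850 (minus strand), *Foxa1* from chr12:57546122-57546361 (minus strand) and *Elf5* from chr2:103423818-103424057 (plus strand).
*Gata3*: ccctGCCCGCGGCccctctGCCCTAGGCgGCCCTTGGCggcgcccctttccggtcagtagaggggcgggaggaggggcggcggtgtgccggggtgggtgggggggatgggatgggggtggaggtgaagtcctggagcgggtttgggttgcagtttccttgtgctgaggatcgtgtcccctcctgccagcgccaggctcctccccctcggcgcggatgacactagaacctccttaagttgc
*Foxa1*: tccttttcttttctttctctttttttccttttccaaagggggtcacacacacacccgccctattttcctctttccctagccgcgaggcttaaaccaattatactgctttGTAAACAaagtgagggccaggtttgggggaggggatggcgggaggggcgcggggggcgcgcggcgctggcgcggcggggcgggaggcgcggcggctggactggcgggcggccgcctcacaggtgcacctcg
*Elf5*: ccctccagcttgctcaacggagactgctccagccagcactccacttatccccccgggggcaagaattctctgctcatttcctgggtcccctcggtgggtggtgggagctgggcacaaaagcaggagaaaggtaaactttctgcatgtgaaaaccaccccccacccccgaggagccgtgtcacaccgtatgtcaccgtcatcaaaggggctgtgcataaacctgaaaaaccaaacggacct

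The capitals in the *Gata3* sequence are 3 matches to the AP-2 motif GCCNNNGGC. Of 32851 promoter windows of the full 300 bases, 16.6% held at least 1 match. The full *Gata3* window was 67.3% G and C, against a median of 52.7% over all windows. The capitals in the *Foxa1* sequence are 1 match to a forkhead motif (TGTTTAC or TGTTTGC, here on the reverse strand), held by 8.48% of windows. The shown *Elf5* window held no match to these or to the other motifs searched, which were a GATA motif (AGATAA or TGATAA, in 18.6% of windows), an ETS motif (AGGAAG or CGGAAG, in 46.5%), a STAT motif (TTCNNNGAA, in 8.3%) and an estrogen receptor motif (AGGTCA, in 16.3%). No motif contained another, and a match describes letters only. Over the full 300 bases the *Foxa1* window held 26 CpG and the *Gata3* window 22, against a median of 7 over all windows and 10 in the shown *Elf5* window. Another *Elf5* window (chr2:103411848-103412147, plus strand), nearer the outermost annotated start, is not shown and held 3 CpG.

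Depth ran from 19231428 to 28360592 counts per culture, so that 3 counts, taken as the floor of what a culture can show, equal 0.0999 to 0.154 CPM (counts per 1000000 of the library size after TMM adjustment). *KD2* replicate 3 differed more from the other 2 *KD2* cultures (chi-square per degree of freedom of 17.4 and 22.1) than they did from each other (1.74), and *WT* replicate 1 from the other *WT* cultures (13.1 and 10.7, against 3.38). The targeted gene *Vangl2* had 66, 99 and 86 counts in *WT*, 75, 48 and 69 in *KD1* and 90, 118 and 90 in *KD2*. In CPM it was lower in *KD1* (log2 fold change -0.63 ± 0.171 SE, adjusted p = 0.0058 by edgeR's quasi-likelihood test), while in *KD2* it did not differ beyond the spread (0.05, 95% interval -0.30 to 0.40, adjusted p = 0.81). A transcript that carries an edit can still be counted, so this level does not check the edit. Epithelial markers summed to 4881 to 5462 CPM in *WT*, 5538 to 5678 in *KD1* and 2942 to 3645 in *KD2*. Most of the sum in *WT* was the basal keratins *Krt5* (mean 2117 CPM) and *Krt14* (1527), which were at 1088 and 819 in *KD2*. *Epcam* and *Cdh1* were lower in *KD2* as well, *Krt8* was higher (268 against 158) and *Krt7* and *Krt18* did not pass. Of the 8 on that list 7 were above the floor, and *Krt19* had no count anywhere.

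In *KD1*, *Ehf*, *Foxa1*, *Gata3* and *Trp63* were higher than in *WT* and *Tfap2c* and *Sox9* were lower. In *KD2*, *Elf5*, *Ehf* and *Gata3* were higher and *Tfap2c*, *Trp63* and *Sox9* were lower. The count of factors that passed an adjusted p under 0.05 was therefore 4 higher and 2 lower in *KD1*, where 26.9% of the 15253 tested genes were higher and 30.0% lower, and 3 higher and 3 lower in *KD2*, where 34.0% were higher and 33.3% lower. With *KD2* set directly against *KD1*, 2 factors had more and 5 had less transcript in *KD2*, against 34.8% and 33.0% of tested genes, so 6, 6 and 7 of the 8 tested factors passed beside a majority of all tested genes. Past 2-fold as well, 3 factors were higher and 1 lower in *KD1* (9.34% and 7.49% of tested genes), 1 was higher and 1 lower in *KD2* (14.5% and 6.71%), and 1 had more and 3 had less in *KD2* against *KD1* (14.7% and 8.58%). When the libraries were scaled by total count, the share of called genes that were higher in *KD2* than in *KD1* went from 51.3% to 61.8% and the median log2 fold change of all genes from 0.02 to 0.14, and the 7 factors kept their direction. Without *KD2* replicate 3 the numbers of factors that passed were 7, 6 and 7, and without *WT* replicate 1 they were 6, 6 and 7.

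**Figure D1:**
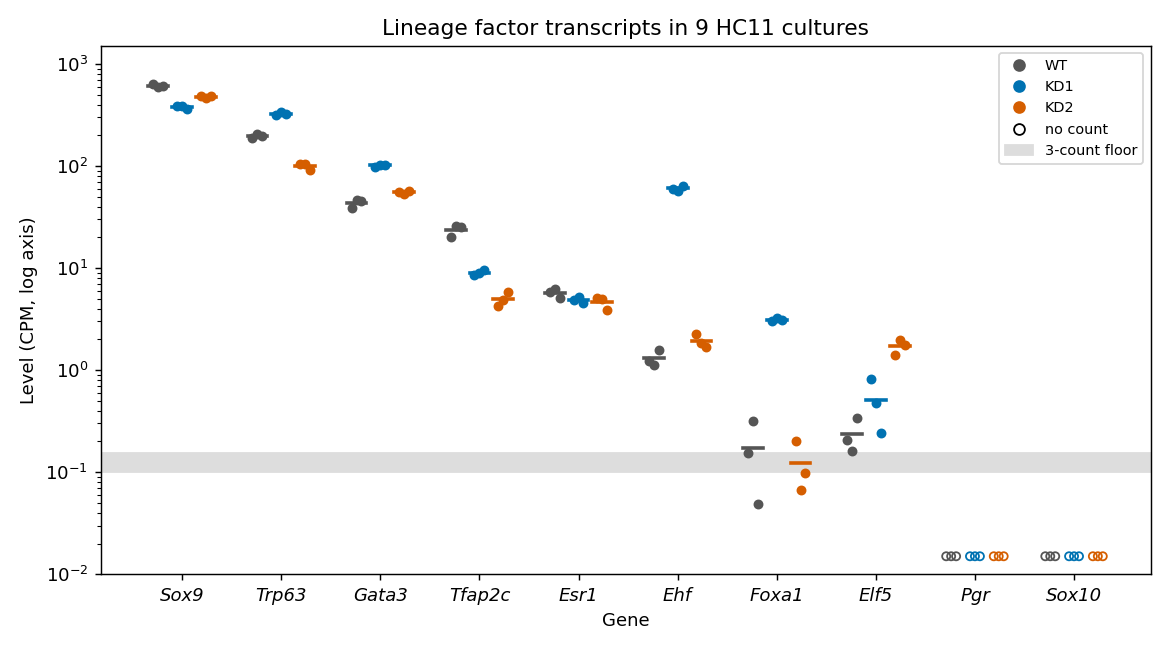
Level of each factor in CPM (log axis) in the 9 cultures, with 1 point per culture, a bar at the mean of 3 cultures, open circles at the bottom for cultures with no count and a grey band at the floor of 3 counts. *Ehf* and *Foxa1* stand out in *KD1*, *Elf5* is highest in *KD2*, *Tfap2c* steps down from *WT* to *KD1* to *KD2*, and *Pgr* and *Sox10* have no count.

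The plot of levels by culture shows how far apart the factors lie. Per kilobase of exon, *Sox9* was the most abundant in every line (148 CPM per kb in *WT*, 91.2 in *KD1* and 115 in *KD2*), above 97% of 15045 tested genes of known length in *KD1* and more in the other lines. In *WT* it was followed by *Trp63* (23.4), *Gata3* (11), *Tfap2c* (6.45), *Esr1* (0.42) and *Ehf* (0.234), with no overlap between neighbours, and then by *Foxa1* (0.0523) and *Elf5* (0.0401), which overlapped. In *KD1* the order was *Trp63* (38.8 CPM per kb), *Gata3* (25.5), *Ehf* (10.8), *Tfap2c* (2.45), *Foxa1* (0.941), *Esr1* (0.356) and *Elf5* (0.0866), again apart from each other, so that *Ehf* moved from above 12.5% of tested genes in *WT* to above 65.6%. In *KD2* *Gata3* (13.9 CPM per kb) stood above *Trp63* (12), and *Ehf* (0.345), *Esr1* (0.341) and *Elf5* (0.292) overlapped. A factor's level in bulk RNA cannot tell more RNA per cell from more cells with that RNA.

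Among the ETS factors, *Ehf* had 24, 28 and 32 counts in *WT*, 1625, 1451 and 1595 in *KD1* and 56, 55 and 34 in *KD2*. Every *KD1* culture lay far above every *WT* and *KD2* culture, and the *KD2* cultures lay just above the *WT* ones. The mean level was 1.3 ± 0.23 CPM in *WT* (SD, n = 3 for this and the values that follow), 60.5 ± 3.66 in *KD1* and 1.92 ± 0.306 in *KD2*. *Ehf* was 46.5-fold higher in *KD1* than in *WT* (95% interval 38.9 to 55.7, adjusted p = 1.4e-13), the largest change of any of the 10 factors in any comparison. In *KD2* it was 1.49-fold higher (1.13 to 1.96, adjusted p = 0.013). The *KD2* call was lost without *WT* replicate 2 (log2 fold change 0.48) and without *KD2* replicate 1 (0.45), each at an adjusted p of 0.064, the highest over all alternatives.

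*Elf5*, the alveolar factor, had 4, 4 and 7 counts in *WT*, 22, 12 and 6 in *KD1* and 35, 59 and 36 in *KD2*. All *KD2* cultures were above all others, whereas the third *KD1* culture fell within the *WT* range. Its level was 0.236 ± 0.0947 CPM in *WT*, 0.509 ± 0.287 in *KD1* and 1.72 ± 0.279 in *KD2*. *Elf5* was 7.32-fold higher in *KD2* than in *WT* (95% interval 4.1 to 13.1, adjusted p = 1.7e-05), from *WT* counts little above the floor. In *KD1* the log2 fold change was 1.14 (0.10 to 2.18) and did not pass (adjusted p = 0.058). That value ran from 0.62 without *KD1* replicate 1 to 1.52 without *WT* replicate 3, and it passed without *KD1* replicate 3 (1.47, adjusted p = 0.013), without *WT* replicate 3 (adjusted p = 0.047), without *KD2* replicate 3 (1.16, adjusted p = 0.046) and with no filter on low counts (1.15, adjusted p = 0.025), the highest adjusted p over all alternatives being 0.32. The plot of fold changes sets both ETS factors beside the others, and shows the wider intervals of *Elf5* and *Foxa1*, the factors with the fewest counts.

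**Figure D2:**
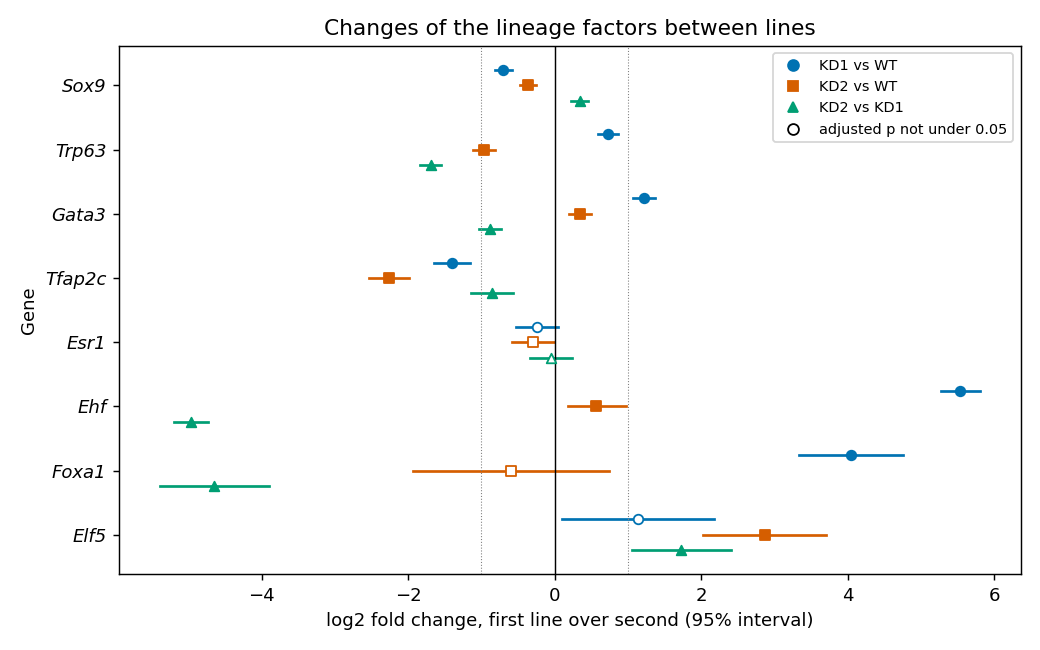
Log2 fold changes of the 8 tested factors with 95% intervals in *KD1* against *WT*, *KD2* against *WT* and *KD2* against *KD1*, with open symbols where the adjusted p was not under 0.05 and dotted lines at a 2-fold change. Against *WT*, *KD1* holds the largest changes (*Ehf* 5.54, *Foxa1* 4.05), *Elf5* is highest in *KD2* (2.87), and *Trp63* lies on opposite sides of 0 in the 2 lines (0.73 and -0.96).

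Among the luminal and hormone-sensing factors, *Gata3* had 760, 1161 and 929 counts in *WT*, 2662, 2628 and 2544 in *KD1* and 1382, 1600 and 1146 in *KD2*. In CPM the lines did not overlap, with 38.9 to 46.4 in *WT*, 98.3 to 103 in *KD1* and 53.3 to 56.4 in *KD2*. *Gata3* was 2.32-fold higher in *KD1* (95% interval 2.09 to 2.58, adjusted p = 3.1e-09) and 1.26-fold higher in *KD2* (1.14 to 1.4, adjusted p = 0.00073). Exons of *Gata3* overlap those of *Gm13256* on the opposite strand over 155 bases (3.9% of its exon length), and 2.22% of its 50-base windows also occur in other genes.

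*Foxa1*, the forkhead factor that opens chromatin for the estrogen receptor, had 3, 8 and 1 counts in *WT*, 83, 83 and 76 in *KD1* and 5, 2 and 2 in *KD2*. *KD1* was clear of both other lines, while *WT* and *KD2* overlapped and lay mostly at or under the floor. The fitted change in *KD1* was 16.6-fold (95% interval 10.1 to 27.2, adjusted p = 1.5e-07). Its size rests on few *WT* counts. The log2 fold change of 4.05 (3.34 to 4.76) ran from 3.66 without *WT* replicate 3 to 4.92 without *WT* replicate 2, and the call held. In *KD2* no difference from *WT* was detectable at this depth (log2 fold change -0.60, interval -1.93 to 0.74, adjusted p = 0.41), and its sign turned without *WT* replicate 2.

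*Esr1* had 115, 155 and 105 counts in *WT*, 132, 131 and 113 in *KD1* and 126, 150 and 79 in *KD2*, or 5.74 ± 0.552, 4.86 ± 0.297 and 4.66 ± 0.67 CPM. The lines were close together, with *KD2* just below *WT* and *KD1* overlapping both. Neither line passed, at a log2 fold change of -0.24 in *KD1* (95% interval -0.53 to 0.04, adjusted p = 0.14) and -0.29 in *KD2* (-0.58 to -0.01, adjusted p = 0.067). A drop of up to 1.44-fold in *KD1*, or up to 1.5-fold in *KD2*, lies within these intervals. *Pgr*, a gene that estrogen receptor is known to induce, had 0 counts in all 9 cultures, which allows up to 0.0999 to 0.154 CPM per culture.

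Among the basal and progenitor factors, *Trp63* had 3647, 5131 and 4011 counts in *WT*, 8630, 8562 and 7962 in *KD1* and 2609, 3147 and 1855 in *KD2*. The lines did not overlap in CPM, and they moved apart in opposite directions from *WT* (196 ± 9.22) to *KD1* (325 ± 9.79) and to *KD2* (100 ± 8.01). *Trp63* was 1.66-fold higher in *KD1* (95% interval 1.51 to 1.83, adjusted p = 3.6e-07) and 1.95-fold lower in *KD2* (1.76 to 2.15, adjusted p = 2.3e-08). The direct comparison gave 3.24-fold less in *KD2* than in *KD1* (2.93 to 3.58, adjusted p = 4.2e-11).

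*Sox9*, a SOX factor of progenitor cells, had 12525, 14893 and 12371 counts in *WT*, 10375, 9891 and 8901 in *KD1* and 11901, 13985 and 9867 in *KD2*. Scaled to library size, all cultures of *KD1* (359 to 389 CPM) were below those of *KD2* (466 to 485), which were below those of *WT* (596 to 642). *Sox9* was 1.63-fold lower in *KD1* (1.5 to 1.77, adjusted p = 8.6e-08) and 1.29-fold lower in *KD2* (1.19 to 1.39, adjusted p = 4.5e-05). Its relative *Sox10* had 0 counts throughout.

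*Tfap2c*, the AP-2 factor, had 396, 646 and 514 counts in *WT*, 231, 226 and 238 in *KD1* and 106, 146 and 119 in *KD2*. Its levels of 23.7 ± 3.02, 9 ± 0.545 and 5 ± 0.794 CPM stepped down without overlap. *Tfap2c* was 2.64-fold lower in *KD1* (95% interval 2.23 to 3.13, adjusted p = 1.4e-07) and 4.79-fold lower in *KD2* (3.98 to 5.76, adjusted p = 2.4e-09), the one factor past 2-fold in both lines. Its calls and directions, like those of *Gata3*, *Trp63* and *Sox9*, were the same under all 16 alternatives.

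Near relatives of the factors were counted from a list of 23, of which 13 were tested. In *KD1* 4 were higher and 5 lower (median log2 fold change 0.03, against -0.03 for all tested genes) and in *KD2* 3 were higher and 5 lower (-0.12 against 0.01, or -0.15 with genes at the floor set to their bound or left out). *Tfap2b*, another AP-2 factor, had 410, 576 and 430 counts in *WT*, 158, 123 and 129 in *KD1* and 0, 0 and 3 in *KD2*. It fell from line to line as *Tfap2c* did, and was lower in *KD1* by a log2 fold change of -2.03 (adjusted p = 1.9e-08). In *KD2* the ratio of its summed counts was 545-fold lower (95% exact interval 186 to 2647, for counting error only). The most abundant AP-2 relative, *Tfap2a*, differed little, at 0.03 in *KD1* (adjusted p = 0.61) and -0.22 in *KD2* (adjusted p = 0.0023), a call that total count scaling removed (-0.11, adjusted p = 0.085). Of the ETS relatives, *Elf3* was higher in *KD1* (log2 fold change 1.41, adjusted p = 1.1e-08) and had -0.22 in *KD2* (adjusted p = 0.066, or -0.27 and 0.021 without *KD2* replicate 3), and the more abundant *Elf1* was 0.26 higher in *KD1* and 0.32 lower in *KD2* on the log2 scale, at adjusted p of 0.0052 and 0.0012. *Trp53*, encoding p53, was the most abundant relative, with 0.03 in *KD1* (adjusted p = 0.68) and -0.17 in *KD2* (adjusted p = 0.029), a call that was lost under 8 alternatives.

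A few relatives were picked out after their values were seen. *Trp73*, the third gene of the p53 family, had 0, 0 and 1 counts in *WT*, 11, 16 and 13 in *KD1* and 1, 1 and 0 in *KD2*, and thus stood above the floor in the same line as the highest *Trp63*. Its summed counts were 33.6-fold higher in *KD1* than in *WT* (95% exact interval 5.7 to 1361). *Sox8*, a close relative of *Sox9* and *Sox10*, had 11, 19 and 15 counts in *WT*, 2, 0 and 1 in *KD1* and 123, 156 and 86 in *KD2*. Its level therefore ran in opposite directions in the 2 lines, 17.8-fold lower by summed counts in *KD1* (5.73 to 89.7) and higher in *KD2* (log2 fold change 2.79 ± 0.212 SE, adjusted p = 5.7e-08). The mineralocorticoid receptor gene *Nr3c2* split the same way, with -1.59 in *KD1* (adjusted p = 0.00024) and 2.48 in *KD2* (adjusted p = 3.5e-08).

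Of 24 other regulators of mammary lineages 21 were tested, with 3 higher and 15 lower in *KD1* (median log2 fold change -0.41) and 2 higher and 13 lower in *KD2* (-0.69). For this and the lists that follow, 26.9% of all tested genes passed upwards and 30.0% downwards in *KD1*, 34.0% and 33.3% did so in *KD2*, their medians were -0.03 and 0.01, and no list was tested against other genes. Some genes stand on more than 1 list and are counted in each. *Id4*, a helix-loop-helix inhibitor of basal cells, was at 187 to 215 CPM in *WT*, 7.74 to 9.23 in *KD1* and 12.8 to 15.7 in *KD2*. It was thus far lower in both lines (log2 fold changes -4.62, adjusted p = 1.1e-13, and -3.83, adjusted p = 1.1e-12). The Notch target *Hey1* was lower as well, by -5.55 for *KD1* (adjusted p = 6.9e-12) and -1.29 for *KD2* (adjusted p = 2.6e-07). *Klf5*, an epithelial Krüppel-like factor, had 0.10 in *KD1* (adjusted p = 0.22) and fell by 1.89 in *KD2* (adjusted p = 5e-11). Among the most abundant of the list, *Snai2* was lower in both (-0.28 and -0.88, adjusted p = 0.0097 and 4.9e-07, the former lost without *WT* replicate 3), and *Cebpb* and *Lmo4* were lower in *KD1* (-0.61, adjusted p = 0.0016, and -1.13, adjusted p = 1.4e-08) with 0.06 and -0.16 in *KD2* (adjusted p = 0.70 and 0.061). *Stat5a*, the signal transducer of prolactin, was picked out after its values were seen, with -0.09 in *KD1* (adjusted p = 0.42) and 0.92 in *KD2* (adjusted p = 6.5e-07).

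Genes of luminal progenitors and alveolar cells, among which *Elf5* acts, were 9 tested of 18 listed. Of these 6 were higher and 1 lower in *KD1* (median log2 fold change 1.73) and 3 higher and 1 lower in *KD2* (-0.14, or -0.06 with 1 gene under the floor in both lines left out). With 34.0% of all tested genes higher in *KD2*, 3 of 9 is near that background. The cytokine gene *Lif* went from 61.1 to 68.5 CPM in *WT* to 658 to 681 in *KD1* and 51.3 to 64.8 in *KD2*, so that *KD1* stood apart (3.37, adjusted p = 4.2e-13) and the other two lines overlapped (-0.14, adjusted p = 0.12). The prolactin receptor gene *Prlr* was higher in *KD1* (1.77, adjusted p = 2.6e-08) and lower in *KD2* (-0.56, adjusted p = 0.0028), where *Elf5* was highest. *Xdh* and *Cd14* were higher in both lines (*Xdh* 1.73 and 0.99, *Cd14* 0.76 and 1.60, largest adjusted p = 2.2e-05), and *Mfge8* was higher in *KD2* (0.78, adjusted p = 2.1e-06) with -0.09 in *KD1* (adjusted p = 0.38). None of 8 genes for caseins, whey proteins and *Glycam1* had more than 2 counts in any culture, and 4 had none. *Ltf*, which encodes the milk and mucosal protein lactoferrin and was picked out after its values were seen, had 34, 24 and 42 counts in the *KD1* cultures, against 0, 1 and 0 in the *WT* cultures and 1, 0 and 0 in the *KD2* cultures. This gene lay above the floor in *KD1* and under it in the other lines, and its summed counts were 84.1-fold higher in *KD1* than in *WT* (95% exact interval 14.7 to 3354). *Kit*, of the same list but with too few counts to be tested, went the other way. It had 4, 6 and 6 counts in *WT*, 0, 0 and 1 in *KD1* and 0, 0 and 0 in *KD2*.

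Hormone-sensing genes were 15 tested of 20 listed, with 3 higher and 10 lower in *KD1* (median log2 fold change -0.41) and 2 higher and 11 lower in *KD2* (-0.77). *Areg*, an EGF receptor ligand that estrogen is known to induce, was higher in *KD1* (0.60, adjusted p = 5.8e-07) and fell by 2.02 in *KD2* (adjusted p = 1.3e-11), in lines where *Esr1* did not pass. *Greb1* of the same list, picked out after its values were seen, went the other way in both lines. It had -1.10 in *KD1* (adjusted p = 2.2e-07) and 0.88 in *KD2* (adjusted p = 6.2e-07). *Ly6a* and *Fgfr2* were lower in both lines (*Ly6a* -5.34 and -0.77, *Fgfr2* -3.19 and -1.93, largest adjusted p = 2.7e-06). *Xbp1*, a factor of secretory cells, was higher in both (1.46 and 0.73, adjusted p = 1.1e-10 and 1.6e-07). Of 12 luminal epithelial genes 11 were tested, with 7 higher and 1 lower in *KD1* (median 0.31) and 1 higher and 5 lower in *KD2* (-0.21). *Epcam*, *Cdh1* and *Cd24a*, all cell surface proteins of epithelium, were each higher in *KD1* (0.31, 0.37 and 0.22) and lower in *KD2* (-0.36, -0.69 and -0.20), with a largest adjusted p of 0.011, and the *Cd24a* call in *KD2* was lost under 4 alternatives. The keratin gene *Krt8* of this list was instead higher in *KD2* (0.76, adjusted p = 7.4e-06), with 0.17 in *KD1* (adjusted p = 0.15). *Krt18* was higher in *KD1* (0.71, adjusted p = 2.8e-06), with 0.13 in *KD2* (adjusted p = 0.16). Both were picked out after their values were seen. The tight junction gene *Cldn4* was at 20.5 to 24.1 CPM in *WT* and 628 to 638 in *KD1* (4.85, adjusted p = 6.3e-14), and at 17.3 to 22.1 in *KD2* (log2 fold change -0.21, adjusted p = 0.056). That *KD2* value passed without *KD2* replicate 3 (-0.30, adjusted p = 0.00058) and with no filter on low counts (adjusted p = 0.011).

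Basal and myoepithelial genes, the group around *Trp63*, were 19 tested of 20 listed. In *KD1* 4 were higher and 6 lower (median log2 fold change -0.10) and in *KD2* 6 were higher and 11 lower (-0.37). The basal keratins *Krt5* and *Krt14* had 0.03 and -0.12 in *KD1* (adjusted p = 0.78 and 0.24) and were lower in *KD2* (-0.96 and -0.90, adjusted p = 1.3e-07 and 4.7e-07). *Krt17* was higher in *KD1* (0.79, adjusted p = 4e-06) and lower in *KD2* (-0.37, adjusted p = 0.0024). *Vim*, an intermediate filament gene of basal and mesenchymal cells, was at 113 to 165 CPM in *WT*, 17.7 to 18.8 in *KD1* and 1020 to 1204 in *KD2*, so the lines lay wide apart in opposite directions (log2 fold changes -2.99, adjusted p = 1e-10, and 2.91, adjusted p = 1.3e-10). *Procr* was higher in both (5.17 and 2.12, adjusted p = 3.1e-14 and 6.9e-10). Some contractile genes of the same list, picked out after their values were seen, went the other way from the keratins in *KD2*. The myosin light chain kinase gene *Mylk* had 1, 6 and 2 counts in *WT*, 2, 3 and 1 in *KD1* and 220, 261 and 204 in *KD2*. The calponin gene *Cnn1* had 3, 2 and 1 counts in *WT*, 3, 4 and 4 in *KD1* and 69, 95 and 69 in *KD2*, and the smooth muscle actin gene *Acta2* had 1, 5 and 5 in *WT*, 9, 6 and 9 in *KD1* and 39, 43 and 33 in *KD2*. All 3 were higher in *KD2* (largest adjusted p = 1.7e-06) with no call in *KD1* (smallest adjusted p = 0.13). Other genes of the list did not follow them in *KD2*. *Myh11* (-0.31, adjusted p = 0.48) and *Tagln* (0.26, adjusted p = 0.43) did not pass, and *Oxtr* was lower (-0.94, adjusted p = 2.7e-05).

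Beside these lists, the summed level of 8 fibroblast markers, 7 of them above the floor in some culture, was 17.2 to 23.2 CPM in *WT*, 8.07 to 10.1 in *KD1* and 90.3 to 100 in *KD2*. Most of it in *KD2* was *Pdgfrb*, at 66.8 ± 5.02 CPM against 0.823 ± 0.236 in *WT*. *Pdgfra* (16.4 ± 0.183 against 7.96 ± 1.01) and *Col1a2* (3.09 ± 0.202 against 1.17 ± 0.393) had larger means in *KD2* as well. *Col1a1* was at 4.38 ± 0.6 against 7.03 ± 1.56 and *Col3a1* at 2.72 ± 0.465 against 3.03 ± 0.16, and *Dcn* and *Lum* reached means of 0.114 and 0.123. Endothelial markers summed to at most 5.5 CPM, immune markers to at most 0.664 and adipocyte markers to at most 0.256 in any culture. Markers of Schwann and neural crest cells, in which *Sox10* is abundant, summed to 53.1 to 84.6 CPM, nearly all of it the receptor gene *Erbb3*, with *Foxd3* at 0. The part of these markers in the levels of the factors was not tested.

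Known targets of p63 were 12, all tested. In *KD1* 6 were higher and 3 lower (median log2 fold change 0.28, against -0.03 over all tested genes, of which 26.9% were higher and 30.0% lower). In *KD2* 1 was higher and 9 were lower (-0.66, against 0.01 and shares of 34.0% and 33.3%). Both comparisons use the same *WT* cultures. *Krt5*, *Krt14*, *Itgb4* and *Jag2*, all lower in *KD2*, are also on the basal list, so these lists are not separate evidence. The hemidesmosome collagen gene *Col17a1* was higher in *KD1* (1.00, adjusted p = 8.7e-08) and fell by 1.71 in *KD2* (adjusted p = 5e-10), and the desmosomal gene *Perp* split the same way at a smaller size (0.53 and -0.27, adjusted p = 5.8e-07 and 0.00025). *Fgfr2* was lower in both lines. In *KD1*, *Fgfr2*, *Dst* (-0.41, adjusted p = 0.00014) and *Jag2* (-0.35, adjusted p = 0.0057) went against the direction of *Trp63*. In *KD2*, *Cdkn1a* did so (0.20, adjusted p = 0.014). The list does not separate targets that p63 raises from those it lowers. The plot of these targets shows 11 of them with their intervals.

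**Figure D3:**
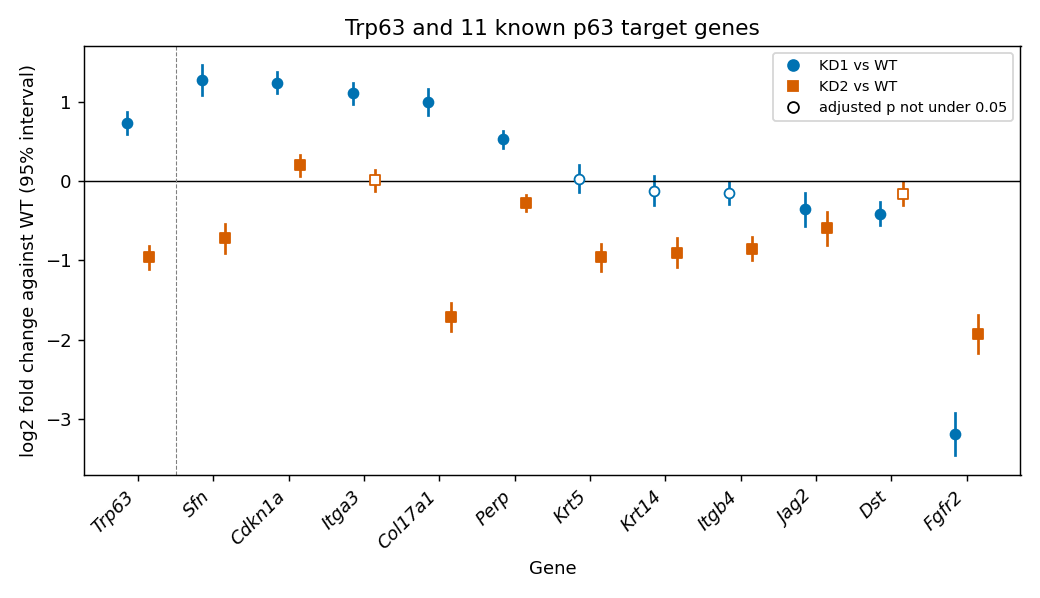
Log2 fold changes against *WT* with 95% intervals for *Trp63*, left of the dashed line, and 11 of the 12 known p63 target genes in *KD1* and *KD2*, with open symbols where the adjusted p was not under 0.05. In *KD1* 5 of the targets shown are higher and 3 lower, and in *KD2* 1 is higher and 8 are lower.

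*Ehf* and *Elf5* are neighbours. *Ehf* lies on the minus strand of chromosome 2 from 103263433 to 103303278 and *Elf5* on the plus strand from 103411688 to 103450989, with start sites 108 kb apart, and each was highest in a different line. Of the 13 tested genes whose start lies within 1 Mb of that of *Ehf*, 3 were higher past 2-fold in *KD1* and none was lower (median log2 fold change 0.23, against -0.16 for chromosome 2), and 4 were higher in *KD2* (0.20 against 0.14). The 4 in *KD2* include *Elf5* itself. Over all tested genes, 9.34% were higher past 2-fold in *KD1* and 14.5% in *KD2*. The largest value among these neighbours in *KD1* was the 1.41 of *Cd44*, the hyaluronan receptor gene, against 5.54 for *Ehf*. In *KD2*, *BC016548*, a gene between *Ehf* and *Elf5* that was picked out after its values were seen, was higher by 3.02 ± 0.244 SE (adjusted p = 1.1e-07), close to the 2.87 of *Elf5*, and *Cat*, the catalase gene on the far side of *Elf5*, by 1.21 ± 0.068 (adjusted p = 3e-09).

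Around *Trp63*, which lies on chromosome 16 from 25683763 to 25892102, 5 genes were tested. Neighbours are named gene by gene for *Ehf* and *Trp63* only, a choice that was not set beforehand. The neighbour median of *Trp63* in *KD1* was the largest of all tested factors. Over all tested genes, 9.34% were higher past 2-fold in *KD1* and 14.5% in *KD2*. In *KD1* 4 of these 5 neighbours were higher past 2-fold, and the median of 2.79 stood above the 0.73 of *Trp63* and the 0.02 of chromosome 16. They were the tight junction gene *Cldn1* (3.31), *Gm4524* (2.86), the collagen prolyl hydroxylase gene *P3h2* (2.79) and *Tprg* (1.46), with a largest adjusted p of 2.3e-06. In *KD2* the median was 0.58 and only *Tprg* passed 2-fold (1.12), while *Trp63* was lower. *P3h2* went from 40.9 to 44.4 CPM in *WT* to 289 to 299 in *KD1* and 60.1 to 65.0 in *KD2*, so all 3 lines stood apart. The plot of neighbours shows both regions.

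**Figure D4:**
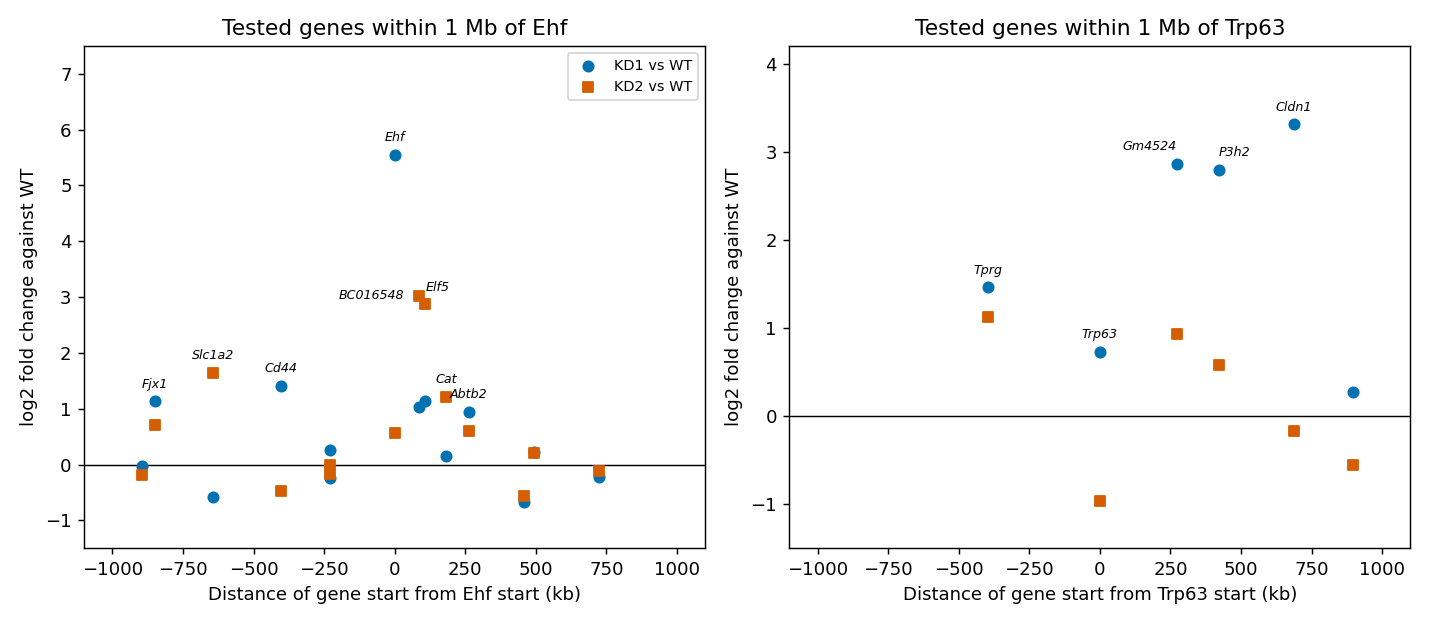
Log2 fold changes against *WT* in *KD1* and *KD2* of tested genes by the distance of their start from that of *Ehf* (left) or *Trp63* (right) in kb, with genes named where either value is at least 0.9 in size. *Ehf* in *KD1* and *BC016548* and *Elf5* in *KD2* stand above their neighbours, and 4 of 5 neighbours of *Trp63* are higher past 2-fold in *KD1*.

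For the other factors, the median over neighbours within 1 Mb of the start in *KD1* was -0.11 over 7 genes for *Gata3*, 0.02 over 2 for *Foxa1*, 0.24 over 9 for *Esr1*, -0.53 over 11 for *Tfap2c* and 0.18 over 11 for *Sox9*. In *KD2* these were 0.67, 0.22, 0.02, -0.40 and 0.63 in the same order, so that those of *Gata3* and *Sox9* were above that of *Trp63*. Around *Sox9* 4 of the 11 neighbours were higher past 2-fold in *KD2* and 0 were lower, though *Sox9* itself was lower. Past 2-fold in *KD2*, 14.5% of all tested genes were higher and 6.71% lower.

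For each tested factor, the genes whose log2 CPM was most correlated with it across the 9 cultures were taken by Pearson's r over some 11320 genes. The cultures form 3 lines, so r mostly reflects 3 levels and is given as a description. For *Ehf* these were the chemokine gene *Cxcl1* (r = 0.999) and *Slfn2* (0.998), both high in *KD1*. For *Gata3* they were *Aplp2* (0.999) and *Bcorl1* (0.998), and for *Foxa1* the second of these was *Elf4* (0.986), itself an ETS factor. *Trp63* was most like *Flrt3* and *Fermt1* (both 0.998), with *Fermt1* at 168 CPM in *WT*, 322 in *KD1* and 72.7 in *KD2*. *Tfap2c* was most like *Pwp2* (0.996) and *Ncbp2* (0.994), and *Sox9* most like *Acot2* and *Unc5b* (both 0.993). *Elf5* (*Dbr1*, 0.973, and *Ldhd*, 0.965) and *Esr1* (*4932438A13Rik*, 0.981, and *Ppp6r3*, 0.948) had the loosest matches, with 9 and 1 genes above 0.95, against 187 to 564 for the other factors.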

How the data were processed

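The authors deposited whole-number read counts per gene without normalization for 9 libraries of polyA RNA. Per the methods and labels, fastp trimmed and filtered the reads, HISAT2 mapped them to GRCm38 and featureCounts (Subread) counted them over exons of a GENCODE annotation. Normalized values and DESeq2 results of the authors were not used. Lines and replicate numbers came from the labels, and 0 columns were left without a sample. Depth was 19231428 to 28360592 counts, and intervals from counts cover counting error only.

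The 10 factors and all lists were chosen by name with earlier results of these data known. Counts were tested with edgeR 4.0.16 (R 4.3.3), using TMM scaling, its expression filter (15253 of 55228 genes), 1 fit of all 9 cultures without a block and the quasi-likelihood test, with Benjamini-Hochberg adjustment over all tested genes. All adjusted p-values are from this fit unless another setting is named. Higher or lower means an adjusted p under 0.05. The script was tested on simulated counts. From each list, the text names the 3 genes highest per exon length and, with an adjusted p under 0.05, past 2-fold and a mean log2 CPM above 1, the 2 that changed most in each *KD* line. *Vangl2* and the 2 genes most like each factor complete the rule. The neighbours named around *Ehf* and *Trp63* fall outside it. A few genes that the rule names are not reported here. Positions and exon lengths came from GENCODE M21 (GRCm38), a release other than the one the study names. Whether the library or the counting kept the strand is not given in the sources used here. Replicate numbers did not pair the cultures (correlation of deviations -0.0652 to 0.0789), and no 2 replicates agreed within sampling noise. Alternatives were DESeq2 1.42.0, 2 other scalings, other filters, thresholds, the 6 cultures compared, a replicate block and each culture left out.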

Additional observations from a re-analysis of the deposited data

Results flagged for a closer look

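For 7 of the 8 tested factors the change from *WT* differed between the lines, by the direct test of *KD2* against *KD1* with edgeR (Benjamini-Hochberg adjusted p). Most tested genes differed in this test too, with 34.8% of 15253 higher and 33.0% lower in *KD2*. *Elf5* was higher in *KD2* than in *KD1* (log2 fold change 1.73, adjusted p = 0.00023), as was *Sox9* (0.34, adjusted p = 7.5e-05). *Ehf* (-4.97, adjusted p = 9.9e-14), *Foxa1* (-4.65, adjusted p = 3.5e-08), *Trp63* (-1.69, adjusted p = 4.2e-11), *Gata3* (-0.88, adjusted p = 5.4e-08) and *Tfap2c* (-0.86, adjusted p = 5.1e-05) were lower in *KD2* than in *KD1*. Of these, *Trp63* alone passed in opposite directions against *WT*, higher in 3 of 3 *KD1* cultures and lower in 3 of 3 *KD2* cultures. *Sox9*, *Tfap2c*, *Gata3* and *Ehf* differed in size while passing in 1 direction, and *Elf5* and *Foxa1* passed against *WT* in 1 line each. With 1 colony per guide, guide and colony cannot be told apart.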

How the results depend on the processing

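Over 424 recomputed values of the 8 tested factors and *Vangl2*, 413 kept direction and side of the threshold. Those that turned sign were never past the threshold: *Foxa1* in *KD2* against *WT* (0.27 without *WT* replicate 2, range -1.16 to 0.27 over cultures left out), *Vangl2* in *KD2* (-0.04 without *WT* replicate 1, up to 0.13) and *Esr1* in *KD2* against *KD1* (0.07 with total count scaling and 0.06 without *KD2* replicate 3). Among other named genes the same held for *Krt5* in *KD1* (-0.02 without *WT* replicate 1, up to 0.09), *Mylk* in *KD1* (0.07 without *WT* replicate 2, down to -1.18) and *Cebpb* in *KD2* (-0.12 without *KD2* replicate 3, up to 0.19). The cause was not tested.

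With a 2-fold change asked for as well, the factors that passed were 4 in *KD1* (1 lower), 2 in *KD2* (1 higher and 1 lower) and 4 in *KD2* against *KD1* (1 higher and 3 lower), and the tested genes that passed were 2568, 3235 and 3556. With at least 10 counts in every culture, *Elf5* and *Foxa1* were no longer tested, so that 1 factor was higher in *KD2* than in *KD1*. Leaving out 1 culture at a time gave 6 to 7, 5 to 6 and 7 to 7 factors in the 3 comparisons. With the replicate number as a block, *Esr1* in *KD2* passed (-0.30, adjusted p = 0.047, where all alternatives ran from 0.047 to 0.25) and no other factor changed its call. Of the other named genes, *Elf3* in *KD2* passed under the block (adjusted p = 0.048). Total count scaling moved the median of all genes in *KD2* against *WT* from 0.01 to 0.12. Depth limits *Elf5* and *Foxa1* in *WT* and makes *Pgr* and *Sox10* unreadable below the floor.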
